A study of Rattus norvegicus with 27 samples.

Results

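Polysome-bound RNA of the hippocampal fields CA1 and CA3 was compared in uninjured rats. Of 27 microarrays in the series, 6 were used for this comparison, 3 of NIC CA1 polysome RNA and 3 of NIC CA3 polysome RNA, chosen by their labels. NIC stands for non-ischemic control. All animals behind these 6 arrays were male Long Evans rats that had a sham operation, with no ischemia and no reperfusion, and their age is not given in the sources used here. Each array held RNA pooled from the dissected field of 5 rats. The tissue was not sorted, so every cell type of a field contributed, and in such bulk RNA fewer cells of a type and less RNA per cell cannot be told apart. Ribosome-bound RNA was pelleted through a sucrose pad, which does not resolve transcripts by the number of ribosomes they carry. Total RNA, with 3 NIC CA1 and 3 NIC CA3 arrays, was extracted from a part of the same post-mitochondrial supernatant that was pelleted, so nuclei and most mitochondria had been removed from both fractions. For a set of other animals, values are also given for polysome RNA after 10 min of global brain ischemia and 8 h of reperfusion (8R), with 3 arrays of CA1 and 4 of CA3.

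CA3 pyramidal neurons receive the mossy fibres of the dentate gyrus and send axons, the Schaffer collaterals, to the dendrites of CA1 pyramidal neurons. The fields differ in their receptors, channels and transcription factors, and CA1 neurons are known to be more vulnerable to global ischemia than CA3 neurons. A messenger RNA is usually bound by several ribosomes at once while it is translated, so RNA that sediments with polysomes is read as the pool engaged by ribosomes. Heavy particles other than polysomes can enter the same pellet.

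The values are probe set intensities on a linear scale, analysed as log2(intensity + 16), and each difference is CA1 minus CA3 on that log2 scale. The added constant makes differences of dim transcripts smaller than they are. The arrays of the groups were not on the same level. Median intensity over all probe sets was 34.4, 34.5 and 32.2 in the CA1 polysome arrays and 27.3, 26.8 and 25.6 in the CA3 polysome arrays. The median difference over the 12716 tested genes was accordingly 0.23 as deposited, and it was 0.24, 0.24, 0.23 and 0.21 in 4 equal bins of genes from dim to bright. In total RNA the same median was 0.00. As deposited, 5613 genes (44.1%) were higher in CA1 polysome RNA and 159 (1.25%) lower in limma's test at an adjusted p under 0.05. After quantile normalization, which gives all arrays one distribution, the median difference was 0.00, with 762 genes (5.99%) higher and 625 (4.92%) lower. Of all calls, 54.9% were thus on the higher side after quantile normalization and 97.2% as deposited. Whether the offset came from the RNA or from the scaling of the arrays was not tested, and equal masses of RNA were labelled, so the amount of polysome RNA per field does not appear in these values. Below, differences are given after quantile normalization unless the text says as deposited, and the background shares are those of 5.99% higher and 4.92% lower. All 762 higher genes were also called higher as deposited. Of the 625 lower genes, 159 were also called lower as deposited. The others were called lower only after quantile normalization, though some had negative differences as deposited too. The plot of the differences over all tested genes shows the offset.

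**Figure D1:**
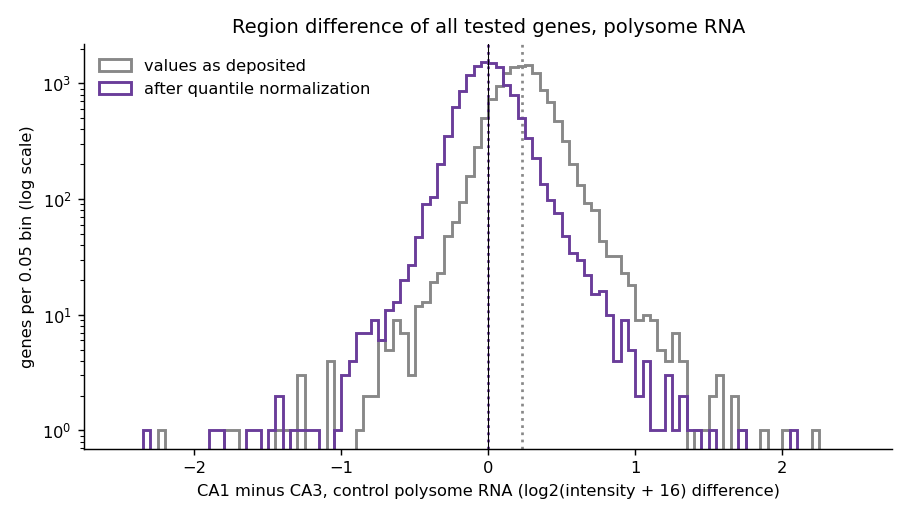
Distribution of the CA1 minus CA3 difference in control polysome RNA over 12716 tested genes, in log2(intensity + 16) units, with the number of genes per bin on a log axis. The grey outline shows values as deposited and the purple outline values after quantile normalization, with dotted lines at the medians of 0.23 and 0.00.

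Wfs1, which encodes an endoplasmic reticulum membrane protein and is a known marker of CA1 pyramidal neurons, led the genes that were higher in CA1 polysome RNA. Its intensity was 752, 1014 and 915 in the CA1 polysome arrays and 178, 169 and 188 in the CA3 polysome arrays. In CA1 it was higher by 4.15-fold, a log2 difference of 2.05 with a standard error of 0.11 (3 arrays per field, adjusted p = 7.37e-11), and by 4.65-fold as deposited. Nts, which encodes the precursor of the neuropeptide neurotensin, had 119, 118 and 149 in CA1 and 14.9, 20.9 and 21.3 in CA3, so that its CA3 values lay near the dim end of the arrays. The difference of Nts was 1.70 ± 0.13 (adjusted p = 1.14e-08), or 3.25-fold on the scale of intensity + 16, while its mean intensities had a ratio of 6.74. As deposited its difference was 2.04, with 2.70 at an added constant of 1 and 1.21 at 64, so its size depended on the constant. The CA3 means of Nts, 19.1 in polysome RNA and 25 in total RNA, lay below the filter on low values, an intensity of about 25.6. Nts thus passed that filter through its level in CA1, and its call is given as a description. Kcnh7, a gene of the Erg family of voltage-gated potassium channels, had 193, 193 and 200.4 in CA1 and 35.9, 45.8 and 41.9 in CA3, a 2.88-fold difference (as deposited 1.89, and 1.30 with 64 added). For these genes every CA1 array lay well above every CA3 array.

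The other 9 of the 12 largest differed by 2.29-fold to 2.65-fold. Epha7, an ephrin receptor gene, was 2.65-fold higher (285, 303 and 341 in CA1 and 76.9, 86.8 and 88.3 in CA3). Ccn3, which encodes a matricellular protein, was 2.58-fold higher and Ano3, an anoctamin gene, 2.53-fold. The inhibitory serotonin receptor gene Htr1b had 256, 291 and 296 in CA1 and 93.3, 80.4 and 74.1 in CA3, a 2.44-fold difference. Adcy1, a calcium-stimulated adenylyl cyclase gene, averaged 296 ± 1.45 in CA1 and 93.2 ± 6.47 in CA3 (SD, n = 3 each), a 2.34-fold difference. The diacylglycerol kinase gene Dgkh, Arhgap12 and the kinase gene Hunk were 2.29-fold, 2.47-fold and 2.37-fold higher. Pou3f1, a POU-domain transcription factor of CA1 neurons, was 2.35-fold higher (183, 173 and 168 in CA1 and 51.7, 43.5 and 48.4 in CA3). All 12 were called under both scalings, with adjusted p from 7.37e-11 to 3.02e-08.

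On the other side, Plagl1, an imprinted gene for a zinc finger transcription factor, had the largest difference. Its intensity was 71.8, 41 and 50.6 in the CA1 polysome arrays and 318, 298 and 297 in the CA3 polysome arrays. In CA1 it was lower by 4.96-fold, a log2 difference of -2.31 with a standard error of 0.13 (3 arrays per field, adjusted p = 2.2e-10), and by 4.62-fold as deposited. Vgll3, a cofactor gene of TEAD transcription factors, had 23.7, 24.6 and 17.8 in CA1 and 113, 123 and 102 in CA3, and was 3.64-fold lower. Vwa5al1 was 3.51-fold lower. As deposited Vgll3 was at -1.76 and Vwa5al1 at -1.72, against -1.04 and -1.09 with 64 added. The CA1 means of Vgll3 were 22.1 in polysome RNA and 27.9 in total RNA, and those of Vwa5al1 30.9 and 17.3. These lay around the filter on low values, an intensity of about 25.6. Both genes thus passed that filter through their levels in CA3, and their calls are given as a description. Nnat, another imprinted gene, which encodes a small membrane protein, was the brightest of the 12, at 362, 317 and 299.6 in CA1 and 850.1, 855 and 884 in CA3. It was 3.09-fold lower in CA1 (adjusted p = 3.03e-12), and its dimmer second probe set gave -0.65 where the first gave -1.63. The nuclear receptor genes Nr2f2, encoding COUP-TFII, and Rxrg, a retinoid receptor, were 2.81-fold and 2.66-fold lower. Nr2f2 averaged 189 ± 28.7 in CA1 and 476 ± 4.67 in CA3 (SD, n = 3 each).

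Calb2, encoding calretinin, a marker of interneurons and of some mossy cells, had 50.4, 39.3 and 52 in CA1 and 121, 132 and 102 in CA3 and was 2.33-fold lower. The neuronal calcium sensor gene Hpcal1 and the copine gene Cpne7 were 2.41-fold and 2.51-fold lower. Atp2b4, a plasma membrane calcium pump gene, had 53.1, 32 and 34.4 in CA1 and 112, 91 and 93.1 in CA3 and was 2.27-fold lower. The Gq-coupled serotonin receptor gene Htr2c (43.5, 26.2 and 42.3 in CA1 and 114, 126 and 144 in CA3) and Tpd52l1 completed the 12, at 2.93-fold and 2.65-fold lower. CA1 and CA3 arrays did not overlap for any of the 24 genes, a condition of their choice. As deposited, CA1 arrays lay above all CA3 arrays for 52.9% of tested genes and below them for 1.82%. Leaving out any 1 of the 6 arrays from the values as deposited, and each other processing alternative, kept all 24 calls. Leaving out arrays after quantile normalization was not looked at for these genes one by one.

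**Figure D2:**
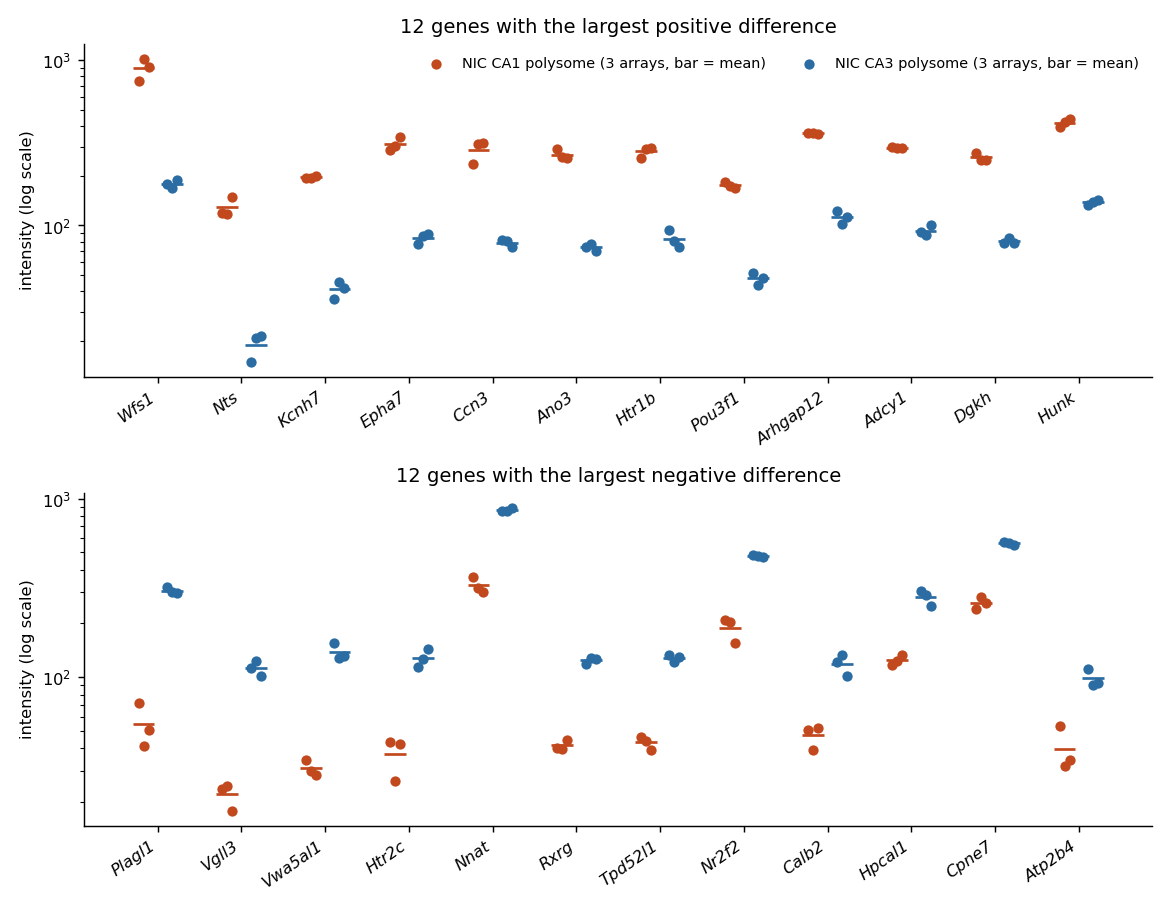
Intensity on a log axis, as deposited, of the 12 genes with the largest positive and the 12 with the largest negative CA1 minus CA3 difference in control polysome RNA. Each dot is 1 array, CA1 in orange on the left and CA3 in blue on the right of each gene, and bars are means of 3 arrays. Wfs1 lies near 894 in CA1 and 178 in CA3, and Plagl1 near 54.4 in CA1 and 304 in CA3.

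Promoters are printed from RefSeq (build GRCr8) as the 250 bases before the start site. They are those of the leading gene in each direction and of 2 higher list members with a cyclic AMP response element. These 2 were picked by hand, and other list members may hold the element too. The letters searched, on both strands, were the octamer of POU factors (ATGCAAAT), the nuclear receptor hexamer (AGGTCA), the cyclic AMP response element (TGACGTCA) and the Egr site (GCGTGGGCG), and capitals mark a match.
Wfs1, chr14:78034955-78035204, plus strand: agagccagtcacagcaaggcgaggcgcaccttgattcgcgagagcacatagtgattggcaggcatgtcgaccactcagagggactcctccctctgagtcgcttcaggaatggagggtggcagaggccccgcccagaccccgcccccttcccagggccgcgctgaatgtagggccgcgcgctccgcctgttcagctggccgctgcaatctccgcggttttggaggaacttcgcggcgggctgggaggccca
Plagl1, chr1:9297214-9297463, plus strand: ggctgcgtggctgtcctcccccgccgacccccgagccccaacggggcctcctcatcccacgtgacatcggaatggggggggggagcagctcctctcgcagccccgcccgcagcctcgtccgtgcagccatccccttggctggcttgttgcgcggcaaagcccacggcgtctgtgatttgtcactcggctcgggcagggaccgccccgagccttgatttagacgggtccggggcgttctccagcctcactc
Neurod6, chr4:86180156-86180405, minus strand: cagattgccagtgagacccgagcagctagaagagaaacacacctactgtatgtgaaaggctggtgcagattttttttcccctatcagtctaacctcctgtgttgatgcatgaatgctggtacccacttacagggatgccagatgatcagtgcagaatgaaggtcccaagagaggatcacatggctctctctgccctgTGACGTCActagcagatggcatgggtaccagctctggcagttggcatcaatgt
Dusp1, chr10:17184603-17184852, plus strand: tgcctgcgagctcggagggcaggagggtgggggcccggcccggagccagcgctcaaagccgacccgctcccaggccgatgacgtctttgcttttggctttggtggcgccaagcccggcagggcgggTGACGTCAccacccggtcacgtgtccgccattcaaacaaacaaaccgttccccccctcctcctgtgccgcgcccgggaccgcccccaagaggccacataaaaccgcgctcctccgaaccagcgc
Neurod6, a neuronal transcription factor gene, and Dusp1, a phosphatase gene induced by activity, each hold 1 response element, and the promoters of Wfs1 and Plagl1 hold none of the 4 motifs. Among all tested genes with a promoter in the table, the response element stood in 14 of 599 (2.34%) of the genes higher in CA1, 19 of 519 (3.66%) of those lower and 286 of 10335 (2.77%) of all. The octamer stood in 5 of 599 (0.835%) of higher, 14 of 519 (2.7%) of lower and 140 of 10335 (1.35%) of all genes. For the hexamer the numbers were 45 of 599 (7.51%), 59 of 519 (11.4%) and 1105 of 10335 (10.7%), and for the Egr site 10 of 599 (1.67%), 2 of 519 (0.385%) and 96 of 10335 (0.929%). These are shares of matched letters with no test.

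Markers of CA1 pyramidal neurons were mostly higher in CA1. Beside each list's counts of called members, brackets give the counts of higher and lower members as deposited and the list's median difference after quantile normalization, to be read against 5.99% higher, 4.92% lower and a median of 0.00 over all genes. The CA1 marker list held 10 of 13 higher and 0 lower (as deposited 11 and 0, median 0.53), with Wfs1, Ccn3 and Pou3f1 first, then Ndst4, a heparan sulfate enzyme gene (132, 136 and 130.2 in CA1 and 51.8, 48.1 and 33.3 in CA3, difference 0.99). Spink8 at -0.14, Dcn at 0.07 and Nptx1 at -0.11 were not called. CA1 and CA3 arrays overlapped for Nptx1 and for Spink8 (45.4, 51.2 and 40.8 in CA1 and 39.5, 38.3 and 49 in CA3). Summed over the 14 members with a probe set, intensity ranged from 3466 to 4015 in the CA1 polysome arrays and from 1848 to 1904 in the CA3 polysome arrays. Sums of intensity, here and below, are of values as deposited and carry the offset between the polysome arrays of the fields.

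CA3 pyramidal markers had 0 of 19 higher and 8 lower (as deposited 4 and 6, median -0.18). Beside Plagl1, Nnat and Rxrg these were the neuropeptide Y receptor gene Npy2r (-0.86), the zinc finger gene St18 (-0.84), the potassium channel gene Kcnq5 (-0.59), Socs2 (-0.36) and Elavl2 (-0.37). Not every marker of the list was lower in CA1. Bok at 0.05, Iyd at 0.03 and the kainate receptor gene Grik4 at -0.24, all used as CA3 markers in rodents, were not called after quantile normalization. Bok and Grik4 had overlapping arrays, with Grik4 at 108, 118 and 93.6 in CA1 and 95.8, 110.5 and 119 in CA3. The summed intensity of the 20 members ranged from 2258 to 2349 in the CA1 polysome arrays and from 3033 to 3254 in the CA3 polysome arrays. Most of that gap came from Nnat and Plagl1. Without them the other 18 members summed to 1890 to 1991 in CA1 and 1865 to 2076 in CA3. These ranges overlap as deposited, where the median gene was 0.23 higher in CA1, so the overlap does not show that the 18 members were alike. CA2 markers had 1 of 7 higher and 2 lower (as deposited 2 and 0, median -0.04), namely Rgs14 at 0.70 and Amigo2 and Pcp4 at -0.38 and -0.38. Called lower only after quantile normalization were Socs2 (-0.15 as deposited), Elavl2 (-0.14), Amigo2 (-0.18) and Pcp4 (-0.16). The deposited CA1 and CA3 intensities overlapped for Kcnq5, Socs2, Amigo2 and Pcp4.

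Markers of cells other than pyramidal neurons also differed. Oligodendrocyte and myelin markers were higher in CA1 for 11 of 17 members and lower for 0, and for all 17 as deposited, with a median of 0.55 after quantile normalization and 0.74 as deposited. Mal, a myelin proteolipid gene, had 310.3, 272 and 255 in CA1 and 97, 127 and 130.4 in CA3, and Mag, Opalin and the galactolipid synthesis gene Ugt8 were at 0.79, 0.79 and 0.74. Mbp, the myelin basic protein gene, was at 0.60 by its bright probe set, whereas a dimmer probe set gave -0.48. The summed intensity of the 17 members was from 4605 to 5717 in the CA1 polysome arrays and from 2677 to 3293 in the CA3 polysome arrays. Oligodendrocyte precursor markers had 0 of 7 higher and 0 lower (as deposited 5 and 0, median 0.15) in limma's test, and 0 higher and 0 lower at an unadjusted p under 0.05.

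Dentate granule cell markers were higher in CA1 for 4 of 9 members and lower for 0, with 7 higher as deposited and a median of 0.22 after quantile normalization and 0.48 as deposited. Prox1, the transcription factor that defines granule cells, had 194, 154 and 177 in CA1 and 74.7, 75.6 and 88.5 in CA3 (difference 0.70 ± 0.10, adjusted p = 2.74e-05). The channel gene Trpc6 (0.58), the synaptic organizer gene C1ql3 (0.55) and Ablim3 (0.46) followed, while Calb1 was at 0.05 and C1ql2 at 0.14. Slc30a3, the vesicular zinc transporter gene that granule cells and pyramidal neurons express, was at 0.82 (197, 158 and 218 in CA1 and 84.3, 82.7 and 68.9 in CA3). As deposited, the 11 dentate members with a probe set summed to values from 1437 to 1743 in the CA1 polysome arrays and from 1004 to 1201 in the CA3 polysome arrays. Sums of microglial markers, a list with 0 calls, were also apart as deposited, at 586 to 623 in CA1 and 502 to 519 in CA3. None of the dentate members was at 0, and Tdo2, which was too dim to be tested, had 6.58, 2.27 and 9.27 in CA1 and 4.52, 4.39 and 0.271 in CA3. The part of granule cells, and of myelin, in the differences of other genes was not tested.

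Interneuron markers had 1 of 14 higher and 3 lower (as deposited 5 and 1, median -0.10). Npy was higher (0.45), and Calb2, the cannabinoid receptor gene Cnr1 (-0.28) and the GABA synthesis gene Gad1 (-0.24) were lower, while the intensity of Gad1 was 524, 420.3 and 453 in CA1 and 475, 479 and 460.4 in CA3. Astrocyte markers had 1 of 12 higher and 0 lower (as deposited 9 and 0, median 0.05), the filament gene Gfap (574, 591 and 609.7 in CA1 and 359, 335 and 369.5 in CA3, difference 0.53). Microglial markers had 0 of 10 higher and 0 lower (as deposited 0 and 0, median -0.06) in limma's test, and 0 higher and 0 lower at an unadjusted p under 0.05 after quantile normalization. Endothelial and pericyte markers had 1 of 8 higher and 0 lower (as deposited 3 and 0, median -0.02), the glucose transporter gene Slc2a1 (0.42). Choroid plexus, meningeal and blood markers had 1 of 8 higher and 0 lower (as deposited 3 and 0, median 0.06), Ptgds at 0.69, which oligodendrocytes also express, while the choroid plexus gene Ttr was at 0.07. As deposited, no call was made for Cnr1 (-0.05) and Gad1 (-0.02), with the difference as deposited in brackets. Overlap of the CA1 and CA3 arrays as deposited was present for Cnr1 and Gad1.

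**Figure D3:**
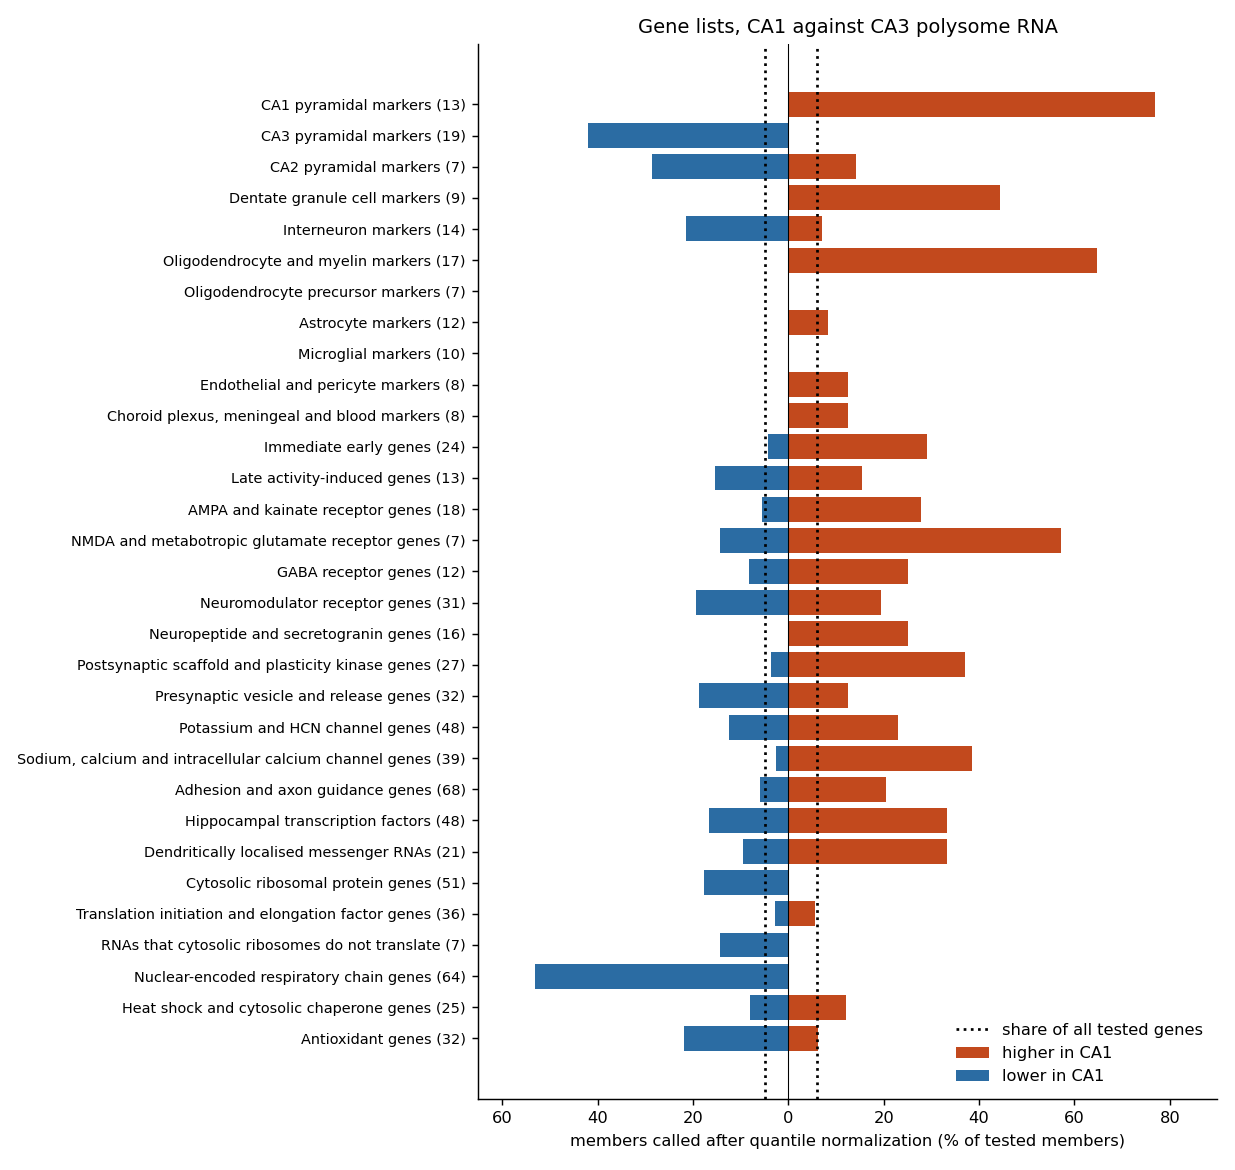
Share of tested members of each of 31 gene lists that was called higher (right, orange) or lower (left, blue) in CA1 than in CA3 polysome RNA after quantile normalization, with the number of tested members in brackets. Dotted lines mark the shares of all tested genes, 5.99% higher and 4.92% lower.

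Transcripts of glutamate receptors differed by subunit. NMDA and metabotropic receptor genes had 4 of 7 higher and 1 lower (as deposited 6 and 0, median 0.27). Grin2a, a subunit gene of NMDA receptors, had 458, 542 and 472 in CA1 and 188, 179 and 217 in CA3, a 2.08-fold difference. Grin2b was at 0.65, the obligatory subunit gene Grin1 at 0.43 and Grm5 at 0.27, while Grin3a was lower (-0.38). AMPA and kainate receptor genes had 5 of 18 higher and 1 lower (as deposited 10 and 0, median 0.06). The higher ones were Gria3 (0.66) and the auxiliary subunit genes Cacng3, Shisa7, Shisa6 and Cnih2, at 0.97, 0.66, 0.51 and 0.48. Neto1, an auxiliary subunit of kainate receptors, was lower (-0.30). For Gria1 and Gria2, the main AMPA receptor subunit genes, no probe set with a single symbol was found, and they were not analysed here. Without quantile normalization the lower call was lost for Grin3a (-0.17) and Neto1 (-0.08), with the difference as deposited in brackets. The deposited CA1 and CA3 intensities overlapped for Grin3a and Neto1.

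GABA receptor genes had 3 of 12 higher and 1 lower (as deposited 6 and 1, median 0.05). Gabra4 (196, 231 and 202 in CA1 and 76.4, 94.9 and 112 in CA3, difference 0.75), Gabrb2 (0.52) and Gabbr1 (0.28) were higher, and Gabra3 was lower (-0.71 ± 0.18, adjusted p = 0.0118), with 1 CA1 array at 83.4 close to the lowest CA3 array at 88.7. Neuromodulator receptor genes lay on both sides and had 6 of 31 higher and 6 lower (as deposited 15 and 4, median -0.03). Higher were the serotonin receptor genes Htr1b and Htr5b (1.11), the muscarinic receptor genes Chrm1 (0.62) and Chrm3 (0.52), the somatostatin receptor gene Sstr4 (0.44) and the adenosine receptor gene Adora1 (0.39). Lower were Htr2c, Htr2a (-0.78), Npy2r, the nociceptin receptor gene Oprl1 (-0.54), Sstr1 (-0.37) and Cnr1. Htr2a was dim, at 40.3, 27.6 and 28 in CA1 and 53.7, 46.9 and 69.5 in CA3, and its second probe set gave -0.32. The lower call rested on quantile normalization for Sstr1 (-0.16) and Cnr1 (-0.05), with the difference as deposited in brackets. Overlap of the CA1 and CA3 arrays as deposited was present for Cnr1.

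Calcium handling and sodium channel genes had 15 of 39 higher and 1 lower (as deposited 32 and 1, median 0.21). Atp2b1, a plasma membrane calcium pump gene, had 794, 892 and 755 in CA1 and 311, 320.4 and 373 in CA3, a 2.11-fold difference, and Scn3b, a sodium channel beta subunit gene, was at 0.89. The cation channel gene Trpc5 (0.66), the calcium channel genes Cacna1e (0.64) and Cacna1h (0.62) and the inositol trisphosphate receptor gene Itpr1 (0.64) were among the others. Atp2b4 was the only member called lower. Potassium and HCN channel genes had 11 of 48 higher and 6 lower (as deposited 23 and 4, median 0.02). After Kcnh7 came Kcnj6 (0.77), an inward rectifier gene, Kcnd2 (0.74), an A-type channel gene, and Kcnq3 (0.68). Lower were Kcnf1 (-0.90), Kcnd3 (-0.63), Kcnq5, Kcnk9 (-0.52), Dpp10 (-0.45) and Kcnip3 (-0.30). The intensity of Kcnd2 was 499, 543 and 505 in CA1 and 256, 256 and 267 in CA3, and that of Kcnd3 53.1, 43.3 and 44.7 in CA1 and 83.9, 68 and 57.9 in CA3. Called lower only after quantile normalization were Dpp10 (-0.25 as deposited) and Kcnip3 (-0.09). The deposited CA1 and CA3 intensities overlapped for Kcnq5 and Kcnip3.

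Postsynaptic scaffold and plasticity kinase genes had 10 of 27 higher and 1 lower (as deposited 22 and 1, median 0.16). The calcium/calmodulin kinase gene Camk4 had 370.4, 331 and 322 in CA1 and 134, 131 and 115 in CA3, a 2.09-fold difference, and Rgs14 (0.70), Itpka (0.46) and the scaffold gene Homer2 (0.41) were higher. Camk2d was lower (-0.93), at 136, 118 and 137 in CA1 and 257, 222 and 204 in CA3. Presynaptic genes had 4 of 32 higher and 6 lower (as deposited 16 and 3, median 0.02). Slc30a3 and the synaptotagmin gene Syt7 (0.73) led the higher ones. Among the lower ones were Stx1a (-0.48), a syntaxin gene whose second probe set gave -0.49, Syn2 (-0.44) and Cplx1 (-0.41). Dendritically localised messenger RNAs had 7 of 21 higher and 2 lower (as deposited 13 and 1, median 0.05), led by Arc (0.66), Itpr1 and Ddn (0.61), with Cplx1 and the elongation factor gene Eef1a1 (-0.15) lower. Neuropeptide and secretogranin genes had 4 of 16 higher and 0 lower (as deposited 10 and 0, median 0.07), namely Nts, Npy, Chgb (0.39) and Scg5 (0.37). As deposited, no call was made for Eef1a1 (0.05 as deposited). Overlap of the CA1 and CA3 arrays as deposited was present for Eef1a1.

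Adhesion and axon guidance genes had 14 of 68 higher and 4 lower (as deposited 42 and 3, median 0.09). Epha7 led, with the latrophilin gene Adgrl2 (1.01), the semaphorin gene Sema5a (0.95) and Flrt2 (0.94). The guidance ligand gene Slit2 was lower in CA1 (-0.95, 49, 44.9 and 41.7 in CA1 and 75.3, 94 and 106 in CA3), whereas the genes of its receptors Robo2 (0.61) and Robo1 (0.30) were higher. Tenm4 (-0.54), Efnb2 (-0.45) and Unc5c (-0.41) were also lower. Hippocampal transcription factors had 16 of 48 higher and 8 lower (as deposited 28 and 5, median 0.11). Bcl11b, a zinc finger gene, averaged 479 ± 8.92 in CA1 and 185 ± 12.8 in CA3 (SD, n = 3 each), a 2.12-fold difference, and Zbtb18 was at 0.83. The corticosteroid receptor genes Nr3c1 (0.53) and Nr3c2 (0.49) were both higher in CA1. Lower, beside Plagl1, Nr2f2, Rxrg and St18, were Etv1 (-0.46), Lhx9 (-0.39), Nr2f1 (-0.29) and Lmo4 (-0.25). Without quantile normalization the lower call was lost for Unc5c (-0.21), Lhx9 (-0.18), Nr2f1 (-0.07) and Lmo4 (-0.03), with the difference as deposited in brackets. The deposited CA1 and CA3 intensities overlapped for Lhx9, Nr2f1 and Lmo4.

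Immediate early genes, which neuronal activity induces within minutes, had 7 of 24 higher and 1 lower (as deposited 16 and 1, median 0.12). Dusp6 had 321, 377 and 444 in CA1 and 153, 169 and 149.9 in CA3 and Nr4a1 522, 516 and 565 in CA1 and 238, 255 and 221 in CA3, with differences of 0.95 and 0.91. Egr1 (0.75), Arc (0.66), Nr4a2 (0.48), Ier5 (0.40) and Dusp1 (0.40) were higher as well. Jun was lower (-0.56), at 339, 311 and 382 in CA1 and 452, 434 and 432 in CA3, and its second probe set gave -0.56. Fos was at -0.12 and was not called. Late activity-induced genes had 2 of 13 higher and 2 lower (as deposited 7 and 0, median 0.10), with Ptgs2 (0.60) and Dclk1 (0.35) on one side and Rgs4 (-0.61) and Rgs2 (-0.32) on the other. The lower call rested on quantile normalization for Rgs4 (-0.39) and Rgs2 (-0.10), with the difference as deposited in brackets. Overlap of the CA1 and CA3 arrays as deposited was present for Rgs4 and Rgs2.

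Transcripts of mitochondrial and ribosomal proteins lay on the CA3 side of the offset. Nuclear-encoded respiratory chain genes had 0 of 64 higher and 34 lower (as deposited 1 and 2, median -0.23). Their median was -0.23 after quantile normalization and -0.03 as deposited, and 2 of 64 lay above the median of all genes. In total RNA, where the offset was near 0, the median of the same 64 genes was -0.22 as deposited. The complex IV gene Cox6c had 224, 189.8 and 239.6 in CA1 and 242, 256 and 256 in CA3 (difference -0.43), the ATP synthase gene Atp5po -0.42, and the complex I genes Ndufs8 and Ndufa8 -0.43 and -0.40. The differences were small, and as deposited 61 of the 64 were not called in either direction. Cytosolic ribosomal protein genes had 0 of 51 higher and 9 lower (as deposited 3 and 0, median -0.17). The sign of their median depended on the scaling, at -0.17 after quantile normalization and 0.05 as deposited, and in total RNA it was -0.16 as deposited. Rpl15 was at -0.38 without a call, and Rpl34 (-0.37), Rpl35a (-0.36) and Rpl27 (-0.35) were called. Members whose near-identical copies share probes, as ribosomal protein pseudogenes can, are uncertain. Antioxidant genes had 2 of 32 higher and 7 lower (as deposited 10 and 0, median -0.13), with the superoxide dismutase genes Sod1 (-0.36) and Sod2 (-0.33) and the peroxiredoxin gene Prdx3 (-0.34) lower and Mt2A (0.30) and Selenop (0.20) higher. A dimmer second probe set of Mt2A gave 0.07. Called lower only after quantile normalization were Atp5po (-0.21 as deposited), Ndufs8 (-0.20), Rpl34 (-0.14), Rpl35a (-0.13), Rpl27 (-0.14), Sod1 (-0.14), Sod2 (-0.12) and Prdx3 (-0.11). The deposited CA1 and CA3 intensities overlapped for Ndufa8, Rpl34, Rpl35a, Rpl27 and Prdx3.

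Initiation and elongation factor genes had 2 of 36 higher and 1 lower (as deposited 17 and 0, median -0.05), Eif4ebp1 (0.36), a translational repressor gene, and Eif4g3 (0.34) against Eef1a1. Heat shock and cytosolic chaperone genes had 3 of 25 higher and 2 lower (as deposited 13 and 1, median -0.01), with Cryab (0.38), Dnajb5 (0.42) and Hsp90b1 (0.27) higher and Hspa12a (-0.37) and Stip1 (-0.17) lower. RNAs that cytosolic ribosomes do not translate had 0 of 7 higher and 1 lower (as deposited 3 and 0, median -0.02), Snhg11 (-0.29). The mitochondrially encoded COX1, COX2 and COX3 were at 0.14, 0.20 and 0.06 and Rpph1, the RNA of ribonuclease P, at -0.20, none of them called after quantile normalization. As deposited, where the median gene was at 0.23, COX1, COX2 and COX3 were called higher, at 0.30, 0.42 and 0.23. The plot of list members shows how the members of 10 lists spread. As deposited, no call was made for Eef1a1 (0.05), Stip1 (0.04) and Snhg11 (-0.07), with the difference as deposited in brackets. Overlap of the CA1 and CA3 arrays as deposited was present for Eef1a1, Stip1 and Snhg11.

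**Figure D4:**
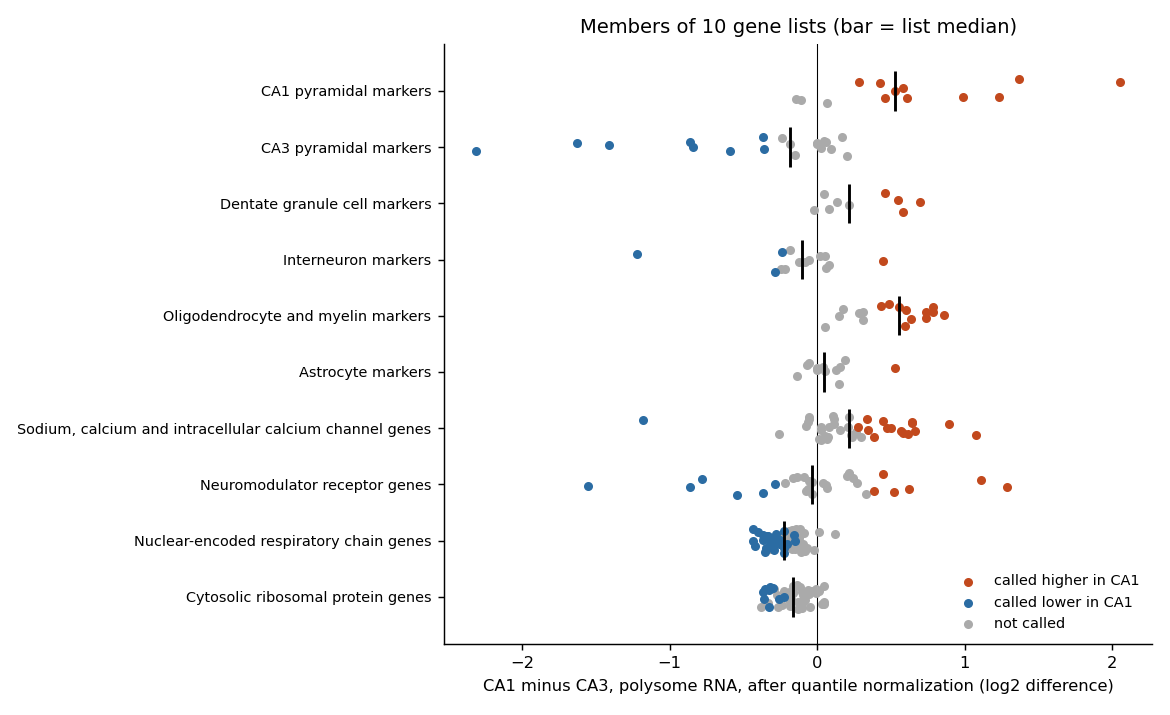
CA1 minus CA3 log2 difference in control polysome RNA after quantile normalization for the tested members of 10 gene lists. Each dot is 1 gene, orange where called higher in CA1, blue where called lower and grey where not called, and black bars are list medians. Respiratory chain genes lie in a narrow band around -0.23, whereas neuromodulator receptor genes spread to both sides.

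Whether the CA1 to CA3 difference of a transcript was the same in polysome RNA and in total RNA was tested as an interaction, polysome difference minus total difference. As deposited, 374 genes (2.94%) were positive and 0 negative, with 3954 positive and 8 negative at an unadjusted p under 0.05, and the median of all genes was 0.21. After quantile normalization 1 gene (0.00786%) remained, with 448 genes positive and 378 negative at an unadjusted p under 0.05. Leaving out 1 array changed the count of 374 to between 1 and 240 for 9 of the 12 arrays, the exceptions being CA1 polysome replicates 2 and 3 and CA3 total replicate 2, which gave 275, 370 and 493. Values of both fractions are set side by side here, polysome RNA first. Wfs1 was at 2.05 in polysome RNA and 1.58 in total RNA, Nts at 1.70 and 1.17, Hunk at 1.25 and 0.88, Plagl1 at -2.31 and -2.26, and Nnat at -1.63 and -1.32. The interaction of the 24 named genes was not called after quantile normalization, with an adjusted p of 0.66 for Wfs1 and 0.66 for Nnat. As deposited, where the median of all genes was 0.21, it was called positive for Wfs1, Nts, Kcnh7, Pou3f1 and Hunk. Their adjusted p in that test ran from 0.026 for Hunk to 0.0462 for Pou3f1. A missed threshold does not show that the fractions were alike. With the replicate number as a block, 638 genes were called as deposited and 1 after quantile normalization. Both fractions were taken from the same supernatants, but the labels do not say which arrays share a pool.

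The gene that passed under both scalings was Tlx2, which encodes a homeobox transcription factor. In polysome RNA it was dim in both fields, at 21.8, 23.7 and 23.4 in CA1 and 15, 21.1 and 16.4 in CA3. Both polysome means lay below the filter on low values, an intensity of about 25.6, and Tlx2 entered the test only through its level in total RNA, so its call is given as a description. In total RNA it had 46.4, 44 and 43.6 in CA1 and 103, 95.8 and 137 in CA3. CA3 thus exceeded CA1 in total RNA on every array, and in polysome RNA the values of CA1 lay slightly above those of CA3 as deposited. The interaction was 1.19 (adjusted p = 0.00816) after quantile normalization and 1.28 ± 0.16 SE (adjusted p = 0.00137, n = 3 in each of 4 groups) as deposited. In a fit of all 27 arrays, whose 8R arrays spread more, it was not called (adjusted p = 0.127). With no filter its adjusted p was 0.00348 as deposited, and with the filter at the 50th percentile Tlx2 was not tested. In the fit of all 27 arrays Trpm4 alone passed, at 1.01.

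**Figure D5:**
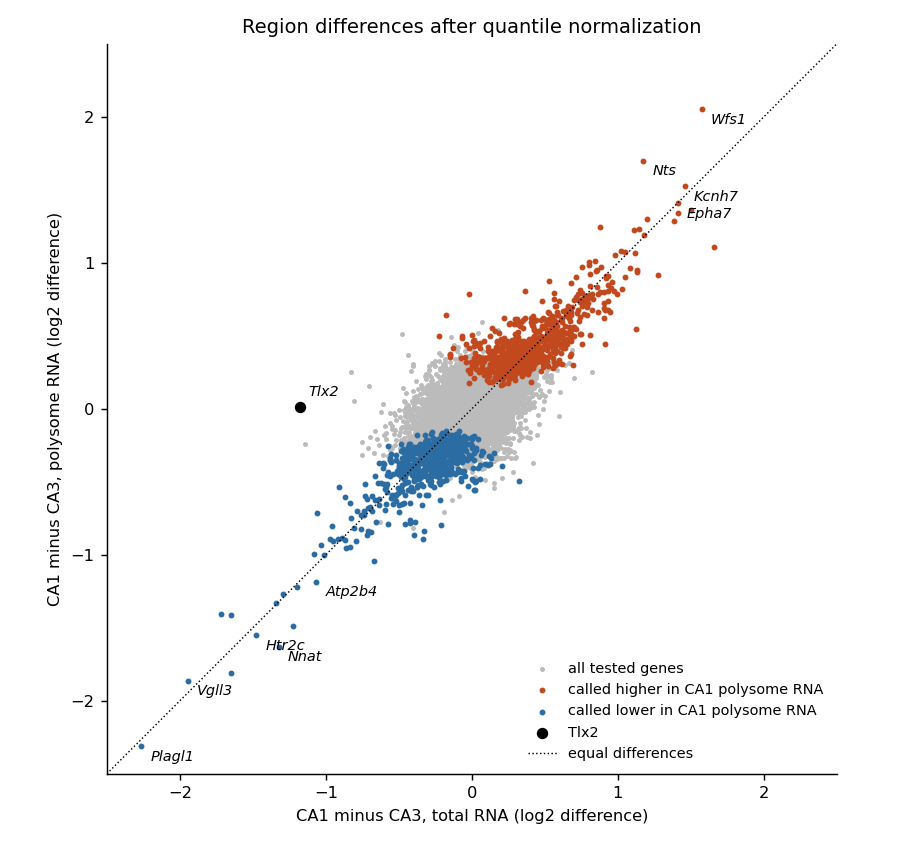
CA1 minus CA3 log2 difference in total RNA (horizontal) and in polysome RNA (vertical) of control rats after quantile normalization, 1 dot per tested gene. Orange and blue mark genes called higher and lower in CA1 polysome RNA, and the dotted line marks equal differences. Tlx2, in black, lies at -1.18 in total RNA and 0.01 in polysome RNA.

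The same regional contrast was set beside polysome RNA of the reperfused animals, which share no array with the controls. Relative to the median over all genes there, 707 of the 762 higher genes (92.8%) were on the CA1 side and 577 of the 625 lower genes (92.3%) on the CA3 side, where 50% of all genes lie on each side by construction. As deposited, Wfs1 was at 2.29 after reperfusion and 2.22 in controls, Epha7 at 1.88 and 1.70, Plagl1 at -2.16 and -2.21, and Vgll3 at -0.85 and -1.76. The difference between these conditions was not tested. In a fit of all 27 arrays after quantile normalization, 583 genes were called in controls, of which 581 were among the 1387 of the fit of the NIC arrays and in the same direction.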

How the data were processed

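The deposited values are 1 intensity per probe set and array on a linear scale, from Affymetrix Rat Gene 2.0 arrays. Per the submitters' processing notes the tools were PLIER and Affymetrix Expression Console (no version), and how arrays were background-corrected and scaled is not stated in the labels or files. The linear scale was read from the values, which ran from 9.82e-06 to 9548 with no arrays identical. Per the labels' protocols, 1 ug of RNA was labelled per array.

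Of 36685 probe sets, 18511 carried 1 gene symbol, 575 several and 17599 none, and of those with 1 symbol 18394 were found in the current RefSeq gene table, with 0 symbols updated. For each of 18166 genes the brightest probe set was kept (291 genes had several). Genes below the 30th percentile of mean log2(intensity + 16) over the 12 NIC arrays (5.38) were left out, which left 12716. No detection values were at hand, so dimness was judged from intensity alone. Differences were tested with limma 3.58.1 in R 4.3.3, in 1 fit of the 12 NIC arrays in 4 groups of region and fraction (8 residual and 13.5 prior degrees of freedom, intensity trend), two-sided, with Benjamini-Hochberg adjustment over all tested genes and calls at an adjusted p under 0.05. The 8R arrays were kept out of the fit because their median SD within groups was 0.149 to 0.173 log2, against 0.0984 to 0.109 log2 in NIC groups. Correlations between arrays were 0.982 or more within NIC CA1 polysome RNA, 0.985 or more within NIC CA3 polysome RNA, and 0.967 to 0.976 between them. The number of arrays limits the precision, and the fit treats pools of both fields as independent, although the same rats may have given both. The test was repeated after quantile normalization, and with other scalings, pseudocounts, filters, probe set rules, array sets, array weights and a replicate block. The fit was checked on simulated data.

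Named genes were the 12 largest differences in each direction among genes called the same way under both scalings whose CA1 and CA3 polysome arrays did not overlap, up to 5 in each direction for the interaction, and for each list up to 4 members with the largest difference from the median of all genes and any member called in a direction in which no other was. Other members named beside these were chosen after their values were seen. Symbols that are only locus names were not named (2 of 921 genes called the same way under both scalings). The 31 gene lists, the members and the tests were chosen with earlier results of these data known. Lists are described by counts and medians, without a set test.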

Additional observations from a re-analysis of the deposited data

Results flagged for a closer look

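Tlx2 stood out because its CA1 to CA3 difference was not the same in polysome RNA and in total RNA by a test of that difference. The polysome difference minus the total difference was 1.28 log2 as deposited and 1.19 after quantile normalization. Its polysome intensities averaged 23 ± 0.994 in CA1 and 17.5 ± 3.2 in CA3 (SD, n = 3 each), below the median intensity of those arrays and below the filter on low values. It was tested only because its total RNA level passed that filter, at means of 44.6 in CA1 and 112 in CA3.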

How the results depend on the processing

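All 24 named polysome differences kept their direction and their call under every alternative run, 432 values in all, with the highest adjusted p at 5.93e-05. The genes were chosen as the largest differences called under both scalings, so their call after quantile normalization was fixed by that choice. Single replicates were left out for these genes on values as deposited only. Counts of calls depended on the scaling. For CA1 against CA3 polysome RNA, 5772 genes were called as deposited, 1387 after quantile normalization, 1594 after median centring and 3573 with all 27 arrays in the fit. Leaving out 1 polysome replicate gave 4253 to 5061. After quantile normalization (alternatives chosen after seeing the data), the 1387 became 583 with all 27 arrays, and 949 to 1262 without 1 polysome replicate, of which between 899 and 1109 were among the 1387 and had the same direction. For the interaction, 374 genes became 1 after quantile normalization, 1 after median centring, 1 with all 27 arrays, 234 with a pseudocount of 1, 572 with a pseudocount of 64, 57 with no filter, 580 with array weights, and 1 to 493 without 1 replicate. The cause of these movements was not tested. Quantile normalization and median centring remove the offset between the arrays, and the other alternatives listed for the interaction left it in place. Among the lists, respiratory chain genes had 34 lower after quantile normalization, 36 after median centring and 2 as deposited, and ribosomal protein genes 9, 12 and 0.

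Replicate numbers are shared between groups, and the labels do not say what they mark. The correlation of deviations of same-numbered arrays was 0.0712, -0.0201 and -0.00288 between CA1 and CA3 polysome RNA, where not every array correlated best with its own number. Between polysome and total RNA it was 0.0872, 0.221 and 0.0363 in CA1 and 0.0289, -0.0368 and 0.0278 in CA3, so in neither were all 3 pairs over 0.1. With a replicate block the interaction count was 638, and with the replicate block and quantile normalization together the counts were 1417 for the polysome comparison and 1 for the interaction. Probe intensities near the dim end, such as those of Nts in CA3, Vgll3 and Vwa5al1 in CA1 and Tlx2 in polysome RNA, limit those differences.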

Other observations

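Within some gene families members were called on opposite sides of the CA1 to CA3 comparison in polysome RNA, and in others all calls were on 1 side. The families were chosen after the values were seen and were given no test as groups, and values are log2 differences after quantile normalization. Their counts are to be read against 5.99% higher and 4.92% lower over all tested genes, whose median difference was 0.00. Of 4 plasma membrane calcium pump genes, Atp2b1 (1.07) and Atp2b2 (0.47) were higher in CA1, Atp2b4 (-1.18) was lower and Atp2b3 (0.16) was not called. Of 10 calcium/calmodulin kinase genes, Camk4 (1.07), Camk1d (0.42) and Camk2b (0.42) were higher, and Camk2d (-0.93), Pnck (-0.91), Camk1g (-0.59) and Camkv (-0.35) were lower. Pnck, which encodes another kinase of the same family, had 177, 171 and 180.4 in CA1 and 291, 298 and 289 in CA3.

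Diacylglycerol kinases, which remove the lipid messenger diacylglycerol, had 3 of 9 higher, Dgkh (1.19), Dgki (0.97) and Dgkz (0.77), and 2 lower, Dgkg (-0.43) and Dgkb (-0.19). Of 7 adenylyl cyclase genes Adcy1 (1.23) and Adcy2 (0.55) were higher and 0 lower. All 7 tested Epha receptor genes had positive differences, and Epha7 (1.41), Epha6 (0.92), Epha5 (0.66) and Epha4 (0.59) were called. Of 6 genes of insulin-like growth factor binding proteins, 3 were lower in CA1, Igfbp5 (-0.86), Igfbp3 (-0.54) and Igfbp2 (-0.47), and 0 higher. Igfbp5 had 60.8, 70.1 and 65.8 in CA1 and 134, 119 and 99 in CA3. Among phosphodiesterase genes Pde7b (0.57) and Pde8b (0.28) were higher, and Pde9a (-0.62) and Pde3a (-0.34) lower, of 19 tested. As deposited, Camkv (-0.11), Dgkb (-0.02) and Pde3a (-0.12) were not called, and CA1 and CA3 arrays overlapped for Igfbp3, Dgkb and Pde3a. Other families looked at had fewer calls on 1 side or calls on both. Serotonin receptor genes had 2 of 8 higher and 2 lower, Dusp phosphatase genes 3 of 20 and 1, and Rgs genes 1 of 15 and 3. The lower Rgs genes were not called as deposited.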
